A study of Mus musculus with 4 samples.

Results

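The genes of cholesterol synthesis and of sterol sensing, efflux, transfer and storage were followed through the DNA microarrays of adipose tissue from mice without ASK1 and from wild-type (WT) mice. The members are 32 gene names, and a member was taken as every probe on all 4 arrays whose gene name in the scanner files equals one of them. The files held 31 of the 32 names, with 44 of the 55681 probes, and 31 of 22066 named genes. Msmo1 was found under its older name Sc4mol, which was also on the list. Of these genes, 30 had a probe well above background on all 4 arrays, and Soat1 was not above background in interscapular brown adipose tissue (iBAT).

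There were 4 groups, the iBAT and the epididymal white adipose tissue (eWAT) of WT and of ASK1-deficient mice, with 1 array for each. All arrays carried Cy3-labelled RNA mixed from 3 male mice aged 10 weeks under normal conditions, and no group received a treatment. ASK1, encoded by Map3k5, is a stress-activated MAP kinase kinase kinase, and it was deleted in the whole body and not in adipocytes alone. According to the study's methods, the WT and ASK1-deficient mice were bred separately and were not littermates, so genotype and breeding line cannot be told apart. With 1 pool for each group the spread between mice is unknown, and no comparison within a tissue has a test.

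Cells build cholesterol from acetyl-CoA through mevalonate, the isoprenoids and squalene, which is closed into lanosterol and then trimmed to cholesterol. When sterols in the endoplasmic reticulum are low, Scap carries the transcription factor SREBP-2, the product of Srebf2, to the Golgi for cleavage, and the freed factor switches on the genes of the whole route. Insig proteins hold Scap back when sterols are plentiful, while oxysterols activate the liver X receptors, which raise sterol efflux. Adipose tissue holds a large pool of unesterified cholesterol, part of it at the surface of the lipid droplets.

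Levels are given as the scaled signal, the processed signal of a probe divided by the 75th percentile of its array, and differences as the log2 ratio of scaled signals. That percentile was a signal of 356 in WT iBAT against 371 in ASK1-deficient iBAT, and 673 in WT eWAT against 634 in ASK1-deficient eWAT, so an order of arrays across the tissues holds for the scaled signal and can turn without scaling. Over repeated spots of one probe, the median SD of the log2 ratio between genotypes was 0.087 in iBAT and 0.060 in eWAT, which is the error of the array only. Between the probes of a gene that had 2, the log2 ratios in iBAT lay a median of 0.16 apart. The labels were checked on other genes. Map3k5 had a log2 ratio of -2.0 in iBAT and -1.76 in eWAT at 1 probe, and of -0.06 and -0.51 at the other. Ucp1, the uncoupling protein of brown fat, was far above eWAT in iBAT, with a log2 ratio of 6.62 between the WT arrays, and Lep, the adipokine leptin, was far below with -4.56. Since RNA came from whole tissue, fewer cells of a type and less RNA per cell cannot be told apart.

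Genes of cholesterol synthesis had lower signals on the ASK1-deficient than on the WT iBAT array along nearly the whole route. Of the 18 synthesis enzymes, 17 had a log2 ratio below 0, 7 were at least 1.5-fold lower, and the median was -0.51, against -0.07 over all 14377 genes measured in iBAT. No enzyme reached 2-fold. The count of 7 depends on the scaling and the background correction. It was 3 with the percentile taken over detected probes, when 2.78% of all genes were as much lower, 4 under normexp background correction with 2.25%, and 9 after median centring with 6.02%. The largest differences were at Pmvk, Nsdhl and Hmgcs1, although under normexp Nsdhl was at -0.45, behind Fdps, Sqle, Idi1 and Sc5d, and after quantile normalization Cyp51 was lower than Hmgcs1. Over all 30 members measured in iBAT, 25 had a log2 ratio below 0, as did 59.5% of all genes, and 7 were at least 1.5-fold lower, as were 4.26% of all genes. None of the 30 was at least 2-fold apart, a difference reached by 1.85% of all genes. The members other than the enzymes lay closer to all genes, with 8 of 12 below 0, none of them 1.5-fold lower and a median of -0.18.

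**Figure D1:**
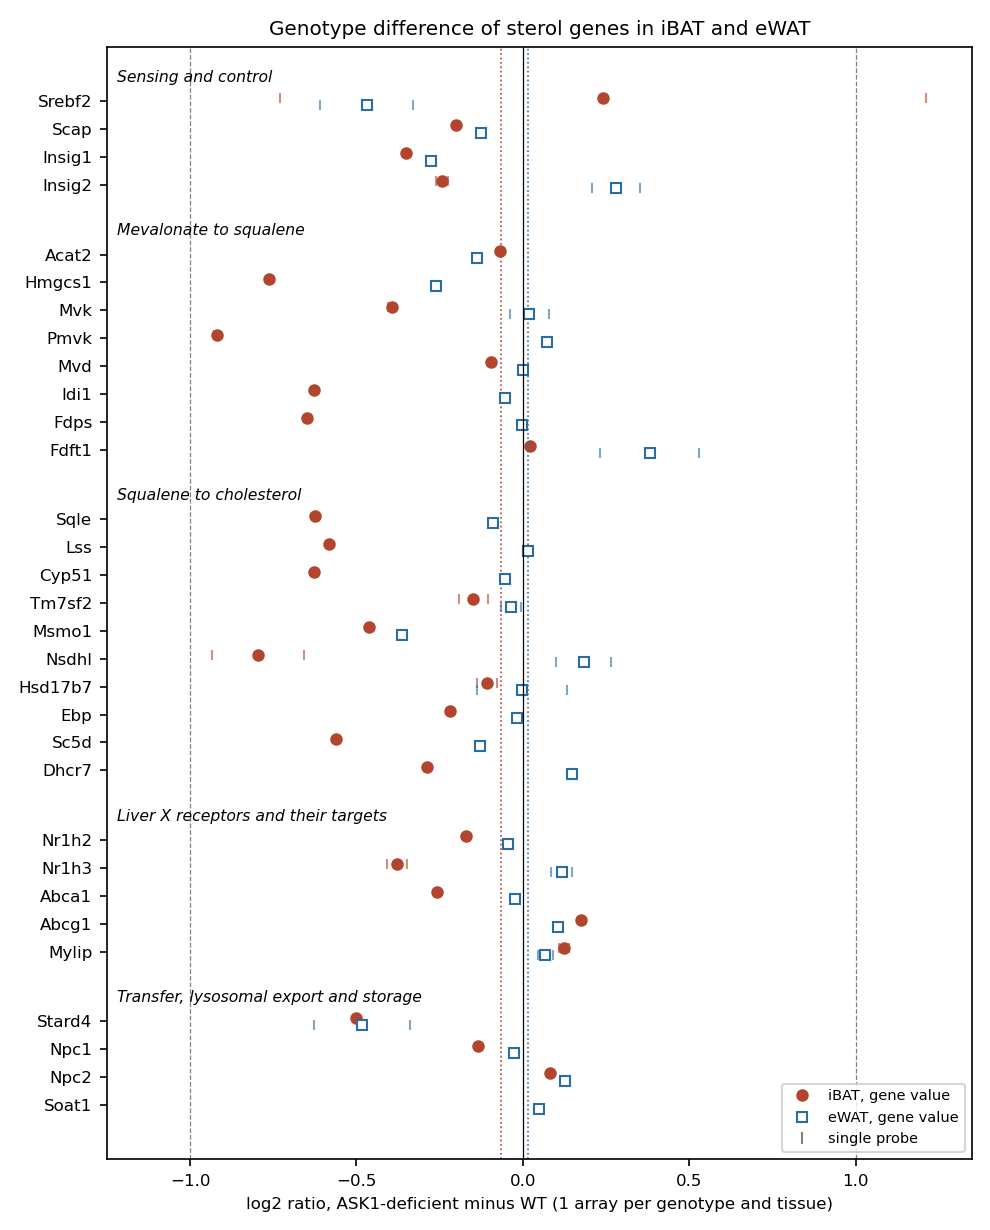
Log2 ratio of each member, ASK1-deficient against WT, in iBAT (red circles) and in eWAT (blue open squares), in order of role, with ticks for single probes where a gene value is the mean of several. Dotted lines mark the median of all genes in each tissue (-0.07 in iBAT, 0.02 in eWAT) and dashed lines a 2-fold difference. The iBAT values of most enzymes lie to the left of their eWAT values, and the Srebf2 probes lie far apart in iBAT.

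The steps from acetyl-CoA to squalene were led by Pmvk, phosphomevalonate kinase, which adds the second phosphate to mevalonate. At the probe on chr3:89272739-89272798 (mm9, the build of the probe annotation), the scaled signal was 25.8 in WT iBAT against 13.7 in ASK1-deficient iBAT, and 20.9 in WT eWAT against 21.8 in ASK1-deficient eWAT. A further probe on chr3:89272867-89272926 gave 51.3, 26.9, 38.1 and 40.3 in the same order. At either probe ASK1-deficient iBAT was the lowest of the 4 arrays, and WT iBAT had the highest scaled signal, although without scaling both eWAT arrays were above it. The log2 ratio in iBAT was -0.91 at the former and -0.93 at the latter, and the gene stood at 0.529 of its WT level, with 1.31% of all genes lower.

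Hmgcs1, the cytosolic HMG-CoA synthase that makes the substrate of the rate-limiting reductase, had the highest scaled signal of its 4 arrays in WT iBAT. It was 55.6 in WT iBAT against 32.8 in ASK1-deficient iBAT, and 45.3 in WT eWAT against 37.9 in ASK1-deficient eWAT, with a log2 ratio of -0.76 in iBAT. Within each tissue the ASK1-deficient array was below the WT array. Without scaling WT iBAT, at a processed signal of 19790, was below both eWAT arrays, at 30531 for WT and 23990.4 for ASK1-deficient mice. The value rests on 1 of its 2 probes, as the other was above background in WT eWAT alone.

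Idi1, the isomerase that makes dimethylallyl diphosphate, had scaled signals of 5.83 in WT iBAT against 3.77 in ASK1-deficient iBAT, and 6.49 in WT eWAT against 6.26 in ASK1-deficient eWAT. Fdps, which joins isoprene units into farnesyl diphosphate, had 13.1, 8.34, 11.3 and 11.3 in that order. For both, the ASK1-deficient iBAT array was lowest and the other 3 lay close together on the scaled signal. Their log2 ratios in iBAT were -0.63 and -0.65. Mvk, mevalonate kinase, had a log2 ratio of -0.39 in iBAT, with its 2 probes at -0.41 and -0.38. The rest of the early steps were near 0 in iBAT: Mvd, the decarboxylase, was at -0.10, Acat2, a thiolase that forms acetoacetyl-CoA, at -0.07, and Fdft1, squalene synthase, at 0.02.

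From squalene onwards all 10 enzymes were below 0 in iBAT, 3 of them at least 1.5-fold, with a median log2 ratio of -0.51. Nsdhl, which removes the carbon-4 methyl groups of the sterol as a dehydrogenase, has 2 probes. The scaled signals were 1.97 in WT iBAT against 1.25 in ASK1-deficient iBAT, and 1.93 in WT eWAT against 2.32 in ASK1-deficient eWAT at chrX:70202803-70202862, and 0.240, 0.126, 0.372 and 0.398 at chrX:70203793-70203852. ASK1-deficient iBAT was the lowest array at both probes. The log2 ratios in iBAT were -0.66 and -0.93, and the gene was at 0.576 of WT.

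Sqle, squalene epoxidase, a second rate-limiting enzyme of the route, had scaled signals of 2.0 in WT iBAT against 1.30 in ASK1-deficient iBAT, and 3.98 in WT eWAT against 3.74 in ASK1-deficient eWAT. Cyp51, the lanosterol demethylase, had 0.399, 0.259, 0.510 and 0.492 in the same order. Both genes were lower in iBAT than in eWAT, and lowest in ASK1-deficient iBAT, with log2 ratios between genotypes in iBAT of -0.62 for Sqle and -0.63 for Cyp51. Lss, which closes squalene epoxide to lanosterol, lay just inside 1.5-fold, with scaled signals of 2.06, 1.38, 1.21 and 1.22 and a log2 ratio in iBAT of -0.58. Its highest scaled signal was in WT iBAT, but without scaling both eWAT arrays were above it, with a processed signal of 733 against 814 on the WT and 774 on the ASK1-deficient array of eWAT.

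Msmo1, the methyl oxidase that acts before Nsdhl, had scaled signals of 4.11 in WT iBAT against 2.99 in ASK1-deficient iBAT, and 8.89 in WT eWAT against 6.92 in ASK1-deficient eWAT. It was lower on the ASK1-deficient array of both tissues, with a log2 ratio of -0.46 in iBAT and -0.36 in eWAT. Sc5d, the lathosterol oxidase that sets the 5,6 double bond, had 6.90, 4.68, 14.7 and 13.4. Between genotypes its log2 ratio was -0.56 in iBAT, against -0.13 in eWAT. The remaining enzymes differed less in iBAT: Dhcr7, which makes cholesterol from 7-dehydrocholesterol, was at -0.29, Ebp, the sterol isomerase, at -0.22, Tm7sf2, a sterol reductase, at -0.15, and Hsd17b7, a sterol ketone reductase, at -0.11.

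**Figure D2:**
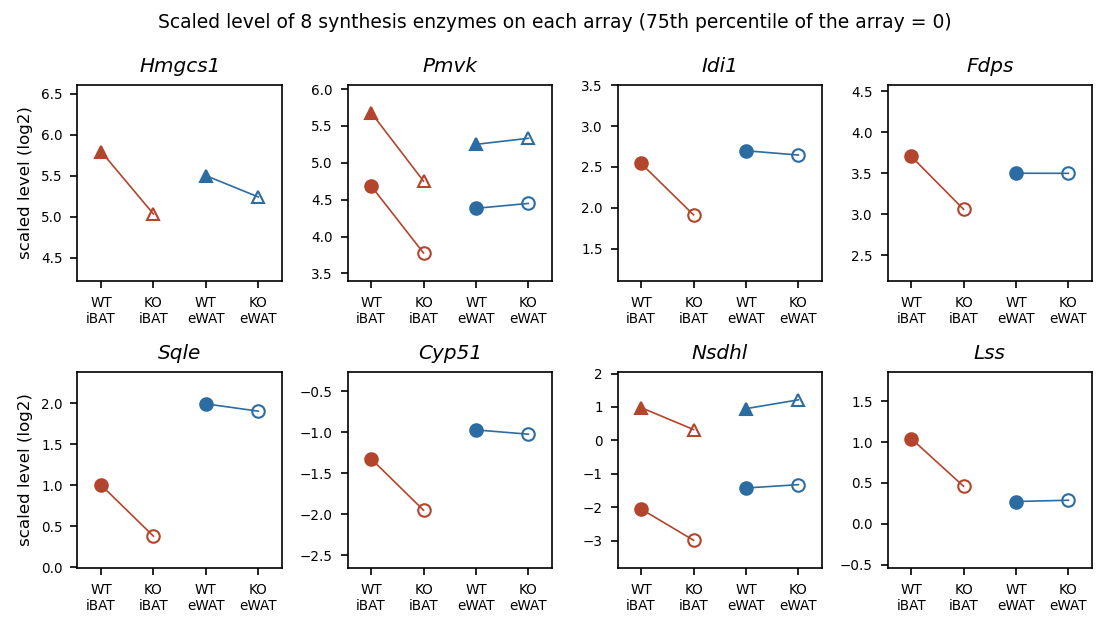
Scaled level (log2 of the scaled signal, 0 at the 75th percentile of the array) of 8 synthesis enzymes on each array, with filled symbols for WT, open symbols for ASK1-deficient, and lines joining the genotypes of a tissue. Circles and triangles are different probes, only those above background are drawn, and the axis range differs between panels. The red lines of iBAT slope down in every panel (Pmvk from 25.8 to 13.7 in scaled signal), while the blue lines of eWAT are flatter.

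Agreement between probes was a further description of the error. In 9 members 2 probes were above background on all 4 arrays. Apart from Srebf2, their log2 ratios in iBAT differed by 0.02 to 0.28. Srebf2 itself was the exception. Its probe on chr15:82034765-82034824 had scaled signals of 0.578 in WT iBAT against 0.349 in ASK1-deficient iBAT, and 0.812 in WT eWAT against 0.532 in ASK1-deficient eWAT. The other, on chr15:82030068-82030127, had 0.114, 0.263, 0.631 and 0.502. In ASK1-deficient iBAT one was lower and the other higher than in WT, with log2 ratios of -0.73 and 1.21, so that their mean of 0.24 describes neither and no direction can be given for Srebf2 in iBAT. In eWAT both were lower in the ASK1-deficient array, at -0.61 and -0.33.

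The other genes of sterol sensing differed less. Insig1, itself a target of SREBP-2, had scaled signals of 2.38 in WT iBAT against 1.86 in ASK1-deficient iBAT, and 1.36 in WT eWAT against 1.12 in ASK1-deficient eWAT. It was lower without ASK1 in both, at a log2 ratio of -0.35 in iBAT and -0.28 in eWAT. Its paralog Insig2 was lower in ASK1-deficient iBAT and higher in ASK1-deficient eWAT, with log2 ratios of -0.24 and 0.28. At its brighter probe the scaled signals of Insig2 were 6.10, 5.22, 7.54 and 8.70, and at its dimmer probe 2.47, 2.06, 2.83 and 3.61. Scap had a log2 ratio of -0.20 in iBAT and -0.13 in eWAT.

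The liver X receptors and their targets did not share one direction in iBAT, where 3 of 5 were below 0, as were 59.5% of all genes. Nr1h3, the receptor LXRα, had scaled signals of 29.5 in WT iBAT against 23.2 in ASK1-deficient iBAT, and 31.6 in WT eWAT against 33.5 in ASK1-deficient eWAT at its brighter probe, and 16.8, 12.6, 15.4 and 17.1 at the other. Averaged over its probes Nr1h3 was at a log2 ratio of -0.38 in iBAT, against 0.12 in eWAT. Nr1h2, the more widely expressed LXRβ, had scaled signals of 28.9, 25.7, 16.8 and 16.3. It was higher in iBAT than in eWAT in both genotypes, with log2 ratios between genotypes of -0.17 in iBAT and -0.04 in eWAT.

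Abca1, which loads cholesterol onto lipid-poor apolipoproteins, had scaled signals of 7.45 in WT iBAT against 6.24 in ASK1-deficient iBAT, and 13.7 in WT eWAT against 13.4 in ASK1-deficient eWAT. Abcg1, which passes cholesterol to mature high-density lipoprotein, had 1.91, 2.16, 4.01 and 4.31. Both transporters were lower in iBAT than in eWAT in both genotypes. Their log2 ratios between genotypes in iBAT had opposite signs, at -0.26 for Abca1 and 0.18 for Abcg1. Mylip, a ubiquitin ligase for lipoprotein receptors, was at 0.12.

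Of the carriers, Stard4, which moves cholesterol through the cytosol, was lower in the ASK1-deficient array of both tissues at its brighter probe. At the probe above background on all 4 arrays its scaled signal was 0.712 in WT iBAT against 0.503 in ASK1-deficient iBAT, and 1.40 in WT eWAT against 0.907 in ASK1-deficient eWAT. Its other probe was not above background in WT iBAT, at a scaled signal of 0.026, but was in ASK1-deficient iBAT, at 0.059, the opposite order. In eWAT that probe was lower in the ASK1-deficient array, at 0.076 against 0.096. Over the probes above background the gene was at a log2 ratio of -0.50 in iBAT, against -0.48 in eWAT. Npc1 and Npc2, which act together to release cholesterol from the lysosome, differed little between genotypes. Their log2 ratios in iBAT were -0.14 and 0.08. Npc1 had scaled signals of 1.79, 1.63, 0.852 and 0.837, and Npc2 had 47.1, 49.9, 60.3 and 65.8. Soat1, which esterifies cholesterol for storage, was not above background in either iBAT array and had scaled signals of 0.107 and 0.110 in WT and ASK1-deficient eWAT.

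In eWAT the members as a whole lay where all genes lay. Of 31 members measured, 18 had a log2 ratio below 0, against 45.9% of all 15377 genes, and the median was -0.02, against 0.02. None was at least 1.5-fold apart, as were 4.05% of all genes, and so none reached 2-fold, as did 1.15%. With the brightest probe of each gene in place of the mean, Srebf2 at -0.61 and Stard4 at -0.63 passed 1.5-fold in eWAT, as did 4.16% of all genes. With only probes well above background on all 4 arrays, Stard4 alone passed it, against 2.87% of all genes. Of the 18 enzymes 11 were below 0, with a median of -0.01. The range over the members ran from -0.48 at Stard4 to 0.38 at Fdft1. The Fdft1 value averages a bright probe at 0.23 and a dim one at 0.53.

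**Figure D3:**
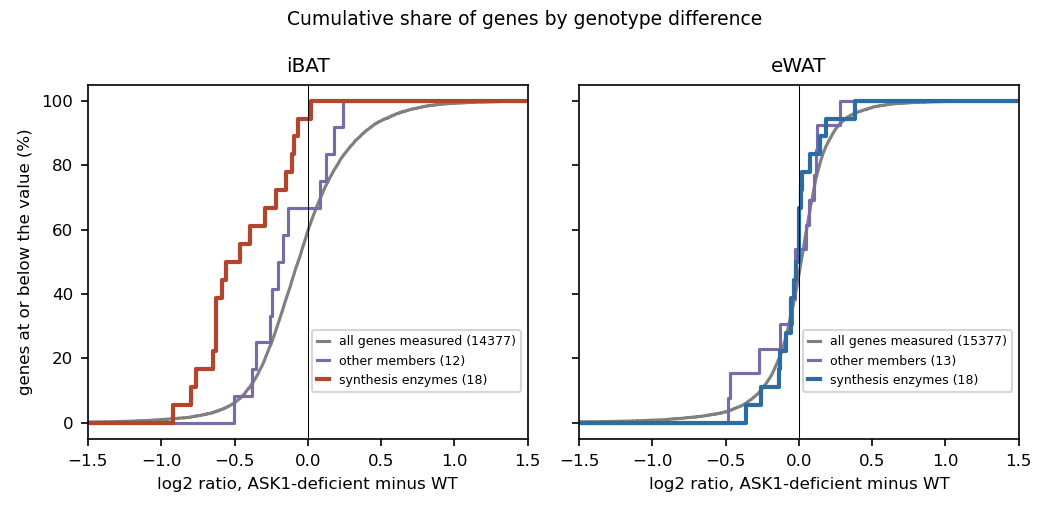
Cumulative share of genes (vertical axis, percent) at or below each log2 ratio of ASK1-deficient to WT (horizontal axis), for the synthesis enzymes, the other members and all genes measured, in iBAT on the left and eWAT on the right. In iBAT the curve of the 18 enzymes lies left of that of all 14377 genes (medians -0.51 and -0.07), and in eWAT the curves overlap (medians -0.01 and 0.02).

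Set side by side, the log2 ratio between genotypes was lower in iBAT than in eWAT for 17 of the 18 enzymes, for 9 of the other 12 members and for 61.0% of all genes. The difference between the ratios of the tissues had a median of -0.43 over the enzymes, -0.07 over the other 12 members and -0.08 over all genes. It was at least 1.5-fold further down in iBAT for 4 of the 30 members, and for 5.18% of all genes. These were Pmvk at -0.99, Nsdhl at -0.98, Fdps at -0.65 and Lss at -0.60. The count depends on the scaling. With the percentile taken over detected probes Fdps, at -0.54 in iBAT and -0.03 in eWAT, fell short of 1.5-fold. After median centring Idi1, at -0.71 and -0.04, passed it. Msmo1 differed little between tissues, at -0.10. Stard4 was at -0.02, or at 0.13 when only its probe above background on all 4 arrays was used, and with such probes alone 8 of the other 12 members were lower in iBAT. With 1 array for each group this difference cannot be tested.

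A joint fit of genotype and tissue over the 4 arrays with limma assumed a genotype difference of the same size in iBAT and eWAT and left 1 residual degree of freedom. Its p-values set each effect against how far the arrays depart from additive effects of genotype and tissue, not against the spread between mice. That error was drawn towards the one pooled over all genes, which weighed as 5.24 degrees of freedom. With Benjamini-Hochberg adjustment over 14057 genes the joint fit called 0 members and 0.0% of all genes for genotype at 0.05. At an unadjusted p under 0.05 there were 3 members, and 5.48% of all genes. Over the alternatives that number was 0 without tissue in the fit and 0 when dim probes were kept, with 0.142% and 3.64% of all genes. It was 2 after median centring and in the series table, with 4.74% and 4.51%, and at most 5, under normexp, with 6.3%. The members were Stard4, with a log2 difference of -0.56 (95% confidence interval -0.92 to -0.21, limma adjusted p = 0.652), Hmgcs1 with -0.51 (-0.94 to -0.08, adjusted p = 0.839) and Msmo1 with -0.41 (-0.77 to -0.06, adjusted p = 0.848). All of these were lower in the ASK1-deficient arrays of both tissues. Pmvk and Nsdhl, which differed mainly in iBAT, were not among them.

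For tissue the same fit called 18 of 30 members at an adjusted p under 0.05, and 55.5% of all genes. Of these members 7 were higher and 11 lower in iBAT, and of all genes 30.8% were called higher and 24.6% lower. Without scaling between arrays the fit called 2 members higher and 22 lower, and 1283 of all genes higher and 9581 lower. Between the WT arrays 7 of 30 members were at least 2-fold apart, against 29.8% of all genes, and between the ASK1-deficient arrays 6 of 30, against 25.0%. The enzymes were split. Acat2, with a scaled signal of 7.95 in WT iBAT against 7.59 in ASK1-deficient iBAT, and 2.67 in WT eWAT against 2.43 in ASK1-deficient eWAT, was higher in iBAT by 1.61 on the log2 scale (95% confidence interval 1.25 to 1.96, limma adjusted p = 0.000266). Fdft1, with 11.0, 11.2, 4.12 and 4.84 at its bright probe, was higher in iBAT by 1.32 (0.95 to 1.68, adjusted p = 0.000667).

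Of the 10 enzymes from squalene onwards 5 were called lower in iBAT and 1 higher. The log2 difference between iBAT and eWAT was -1.30 for Sc5d (95% confidence interval -1.71 to -0.89, limma adjusted p = 0.0011), -1.26 for Sqle (-1.70 to -0.82, adjusted p = 0.00166) and -1.16 for Msmo1 (-1.52 to -0.81, adjusted p = 0.000981). Cyp51 and Nsdhl were also called lower in iBAT, at -0.64 and -0.79, and Dhcr7, at the end of the route, was called higher at 0.73. Lss at 0.47 and Tm7sf2 at 0.13 were not called. Of the early enzymes Mvd was called lower, at -0.42. Pmvk, Fdps and Hmgcs1 had a higher scaled signal in WT iBAT than in WT eWAT and a lower one in ASK1-deficient iBAT than in ASK1-deficient eWAT, and the fit called none of them. The order in WT depends on the scaling: without scaling all 3 genes were below their eWAT signal in WT, at log2 ratios of -0.55, -0.71 and -0.63, and after quantile normalization Fdps and Hmgcs1 were, at -0.06 and -0.13.

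Among the other members Npc1 was higher in iBAT by 1.02 on the log2 scale (limma adjusted p = 0.0017), Insig1 by 0.77 (adjusted p = 0.00516), Nr1h2 by 0.72 (adjusted p = 0.00698) and Scap by 0.61 (adjusted p = 0.0132). Without scaling between arrays, which moved all genes by -0.92 in WT and -0.77 in ASK1-deficient mice, the differences of Insig1, Nr1h2 and Scap turned sign in both genotypes and that of Dhcr7 in the ASK1-deficient mice. The value of Fdft1 in ASK1-deficient mice, 0.64 as the mean of its bright probe at 1.21 and a dim one at 0.06, also turned sign without scaling, to -0.13. Lower in iBAT were Srebf2, with a log2 difference of -1.13 (adjusted p = 0.00427), Abcg1 with -1.03 (adjusted p = 0.00157), Abca1 with -0.99 (adjusted p = 0.00222) and Stard4 with -0.91 (adjusted p = 0.00271). Insig2 was called lower with a smaller difference, -0.51. The Srebf2 value averages probes that differ in size, with log2 ratios between tissues of -0.49 and -2.47 on the WT arrays and -0.61 and -0.93 on the ASK1-deficient arrays. Soat1, outside the fit, had scaled signals of 0.017 and 0.016 in WT and ASK1-deficient iBAT, both not well above background. It was lower in iBAT than in eWAT by at least 1.93-fold on the WT arrays and at least 2.37-fold on the ASK1-deficient arrays, where the dim side is the lowest signal well above background on its array.

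**Figure D4:**
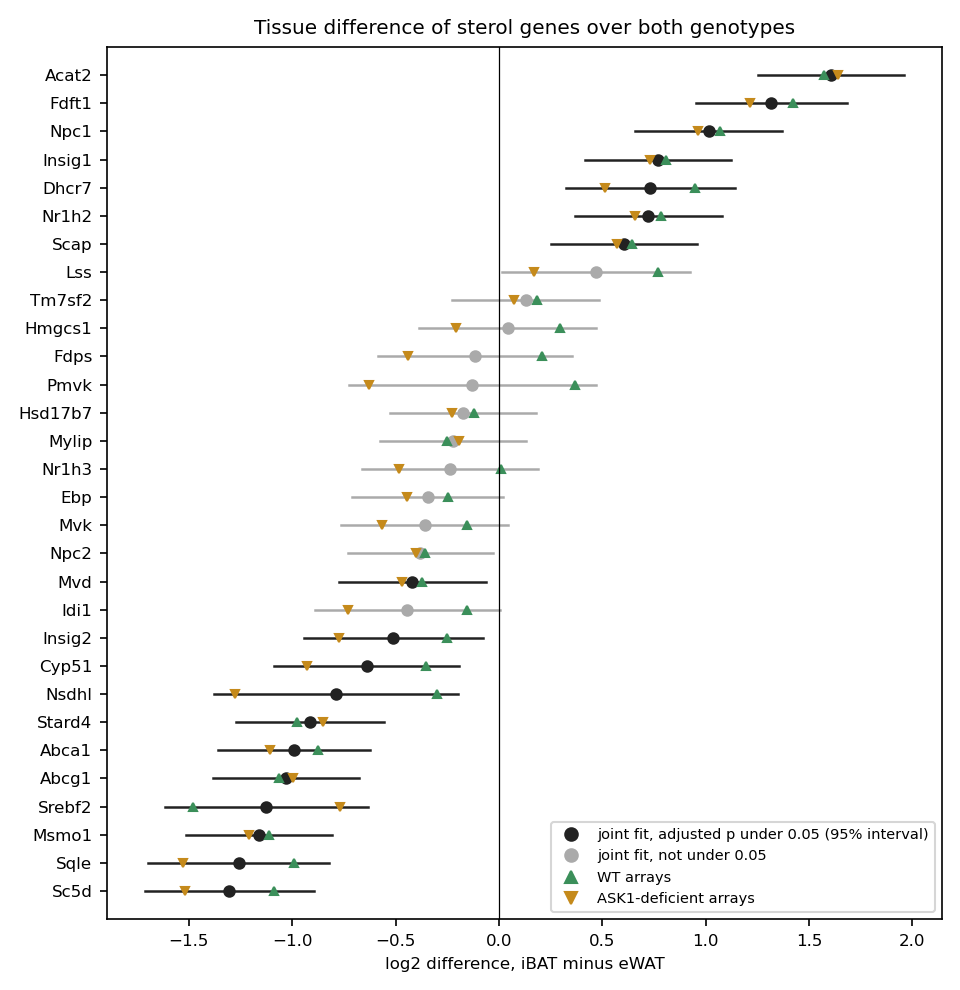
Log2 difference between iBAT and eWAT for the 30 members above background on all 4 arrays, as fitted over both genotypes (circles with 95% confidence intervals, black where the adjusted p was under 0.05) and on the WT arrays (upward triangles) and ASK1-deficient arrays (downward triangles) alone. Acat2 (1.61) and Sc5d (-1.30) lie at the ends, and for Pmvk, Fdps and Hmgcs1 the triangles lie on opposite sides of 0 with this scaling, but without scaling all of their values were below 0.

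Promoter sequence was set beside these values because SREBP-2 is known to act together with the factor NF-Y, which binds CCAAT. The RefSeq promoters used here (GRCm38.p6, 250 bases before to 50 after the start) held 25 of the 31 members, without Fdps, Sqle, Fdft1, Abcg1, Npc1 and Stard4. CCAAT on either strand was found in 20 of the 25 members, 14 of 15 enzymes and 6 of 10 others, and in 41.1% of 27025 genes. The sterol regulatory element, searched as TCACNCCAC on either strand, was found in 1 member, Hmgcs1, and in 1.44% of genes. The liver X receptor element, a direct repeat of AGGTCA spaced by 4 bases, searched on either strand, was found in no member and in 0.0148% of genes. Stretches of 60 bases are shown for the 5 enzymes with a promoter in the table and at least 1.5-fold lower signals in ASK1-deficient iBAT, in the direction of transcription, with CCAAT or its reverse complement ATTGG and the sterol element of Hmgcs1 in capitals. They lie at chr13:119690169-119690228 on the plus strand for Hmgcs1, chr3:89454379-89454438 plus for Pmvk, chr13:8885546-8885605 plus for Idi1, chr5:4104698-4104757 minus for Cyp51 and chrX:72918461-72918520 plus for Nsdhl.
Hmgcs1: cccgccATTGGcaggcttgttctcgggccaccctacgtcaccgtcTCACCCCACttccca
Pmvk: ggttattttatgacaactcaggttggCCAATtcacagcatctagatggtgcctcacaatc
Idi1: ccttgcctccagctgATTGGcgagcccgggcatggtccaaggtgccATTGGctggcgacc
Cyp51: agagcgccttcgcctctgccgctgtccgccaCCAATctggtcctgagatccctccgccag
Nsdhl: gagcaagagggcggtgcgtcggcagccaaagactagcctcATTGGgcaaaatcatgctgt

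The Hmgcs1 stretch begins 182 bases before the start and holds a CCAAT box and the sterol element together, with the element starting at base 137 before it. The Idi1 stretch, which ends at the start site, has 2 CCAAT boxes, while those of Cyp51 and Nsdhl, which also end there, and that of Pmvk, which begins 162 bases before the start, each have 1. A match of letters is a description and not a bound site.

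Further genes of the pathway, 34 with a probe and none of them a member, were also measured. In iBAT 21 of the 34 had a log2 ratio below 0, against 59.5% of all genes, with a median of -0.08 against -0.07, and none was 2-fold apart. In eWAT 12 were below 0, against 45.9% of all genes, with a median of 0.06 against 0.02, and none was 2-fold apart. By group, 7 of 8 genes of control were below 0 in iBAT, 5 of 7 of the isoprenoid branch, 5 of 11 of transport and storage, all 4 partners and further targets of the liver X receptors, and none of the 4 genes of oxysterols. Chosen after their values were seen, Lipa, the lysosomal lipase that frees cholesterol from its esters, had a log2 ratio of -0.69 in iBAT and 0.26 in eWAT, and Srebf1, which encodes the SREBP-1 proteins of fatty acid synthesis, had -0.56 and -0.01.

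Markers of other cell types also differed between genotypes. All 9 macrophage markers measured in iBAT were above 0, with a median log2 ratio of 0.78. The summed scaled signal of the list, 10 genes with 17 probes, was 42.6 in WT iBAT against 54.2 in ASK1-deficient iBAT, and 155 in WT eWAT against 146 in ASK1-deficient eWAT. Most of that sum came from the genes with several probes. In eWAT 9 of 10 macrophage markers were below 0, with a median of -0.06. The summed scaled signal of the 5 adipocyte genes of both depots was 1446, 1439, 1201 and 1252 in that order, with Fabp4 the largest part. The median log2 ratio of these 5 genes in iBAT was -0.28, close to that of the members, with Plin1, Lipe and Pparg below 0 and Adipoq and Fabp4 above. Of 8 brown adipocyte genes 7 were below 0 in iBAT, with a median of -0.37 and a sum of 4000.1, 3363, 54.0 and 21.6. Of 10 hepatocyte genes 5 were measured in eWAT and all 5 were lower in the ASK1-deficient array, with a median of -4.03, while the 3 measured in iBAT were above 0. In iBAT 3 of the 10 were well above background on the WT array and 8 on the ASK1-deficient array, and the scaled signal of Alb, albumin, was 0.021 against 0.311 and that of Ahsg 0.014 against 0.290, both not well above background on the WT array. The sum of the list, 10 genes with 13 probes, was 11.4, 14.1, 49.7 and 8.23, most of it from the genes with several probes. The part of these cell types in the values of the sterol genes was not tested.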

How the data were processed

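RNA levels were read on 4 Agilent arrays of 1 colour, 1 for each genotype and tissue. Arrays were placed in groups from the sample labels. The authors deposited the output of Agilent Feature Extraction 10.7.3.1, whose processed signal is a linear intensity per spot, with background corrected and dim spots replaced by surrogate values, and no scaling across arrays. A table of signal values for the series was deposited as well. Each of its columns equals the processed signal divided by a constant that sets the array median to 1. All arrays were on the same slide and share a scan time, so there was no batch to test.

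Control spots and outlier spots were left out, the log2 signal was averaged over spots of a probe, and the array's 75th percentile was subtracted. A probe counted as well above background where most usable spots were marked so. A gene was the mean over probes well above background on both arrays compared. All 44 member probes were free of outlier and saturated spots, and the number of arrays limits precision. Gene names were matched by symbol or synonym to RefSeq for 22147 of 34844 names. Positions of probes come from the scanner files, which use mm9. Exons and untranslated regions were not assigned here.

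Within a tissue or genotype no test was run, and genes at least 2-fold or 1.5-fold apart were counted. Genotype and tissue were fitted together with limma. The technical spread was taken over probes with at least 5 usable spots. Members named with all 4 values are those at least 2-fold apart in any comparison or 1.5-fold apart between genotypes, and 4 pairs of related genes. Lss, Stard4 and Soat1 were added after their values were seen. The members and lists were chosen with earlier results of these data known. Alternatives were normexp with an offset of 50, other scalings, the values of the series table, no filter or a stricter one on dim probes, only the brightest probe, 1.5-fold, and fits without the other factor. Steps were tested on simulated data. Fits were made in R 4.3.3 with limma 3.58.1, and the rest in Python 3.11.15 with pandas 2.3.3, numpy 2.4.6 and, for plots, matplotlib 3.10.9.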

Additional observations from a re-analysis of the deposited data

Results flagged for a closer look

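Cyp7b1, the oxysterol hydroxylase, which is not a member and was at least 1.5-fold apart in opposite directions in the tissues, had a log2 ratio between ASK1-deficient and WT of 0.70 in iBAT and -0.96 in eWAT. Its scaled signal was 0.065 in WT iBAT against 0.106 in ASK1-deficient iBAT, and 0.432 in WT eWAT against 0.223 in ASK1-deficient eWAT. The lowest scaled signal well above background in WT iBAT was 0.055, so the iBAT value rests on a signal near that limit. The difference between the tissues was not tested, as each group has 1 array. The summed scaled signal of 10 hepatocyte genes with 13 probes was 11.4, 14.1, 49.7 and 8.23 in the same order. Most of this sum came from the genes with several probes, and its part in the Cyp7b1 values was not tested. Ch25h, which makes 25-hydroxycholesterol and was named after its values were seen, had a scaled signal of 0.075 in WT iBAT. Its log2 ratio between genotypes was 0.61 in iBAT, against -0.38 in eWAT.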

How the results depend on the processing

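A median or a single value was taken as moved when it changed by at least the median SD between repeated spots in its comparison, 0.060 to 0.087 on the log2 scale, and a count when it changed by over 1.5 times. Of 94 values over members that were recomputed, 79 stayed within these limits and 15 moved. Of 720 values of single members, 228 moved. In iBAT between genotypes, the median log2 ratio of the members was -0.17 with the 75th percentile taken over detected probes, a setting that moved all genes by 0.10. Members at least 2-fold apart were 1 in the series table (Pmvk, at -1.0), against 1.93% of all genes, and 7 were apart at 1.5-fold, against 8.78%. In eWAT the median was -0.11 without scaling, and it turned sign in the series table, to 0.0066. Between tissues in WT, the median was -0.29 with detected probes, -1.07 without scaling and -0.31 after quantile normalization, and the count was 17 without scaling and 15 at 1.5-fold, with 44.7% (6359) and 50% (7115) of 14236 genes. Between tissues in ASK1-deficient mice, the median was -0.54 after median centring, -1.23 without scaling, -0.60 after quantile normalization and -0.53 in the series table, and the count was 18 without scaling and 17 at 1.5-fold, with 39.9% (5794) and 44.4% (6450) of 14513 genes. Leaving out scaling moved all genes by -0.92 and -0.77 in the tissue comparisons.

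The median of the enzymes in iBAT minus that of all genes was -0.44, between -0.45 and -0.37 in every alternative. The enzymes at least 1.5-fold lower in iBAT numbered 3 to 9. Under normexp 14 of 18 enzymes were below the median of all genes. With the brightest probe Srebf2 was at -0.73 in iBAT. Genes at least 2-fold apart numbered 266 in iBAT and 177 in eWAT, 106 and 60 under normexp, 1127 and 1036 when dim probes were kept, and 1262 and 622 at 1.5-fold. With only probes well above background on all 4 arrays, eWAT had 114. The joint fit called 14 to 24 of the members for tissue, as 47.9% to 77.3% of all genes, and 0 for genotype in every alternative, while over all genes it called 24 for genotype under normexp, 139 after median centring and 128 in the series table. No paired analysis was possible because each group has 1 array and the labels carry no replicate numbers, and no array could be left out. The joint fit has tissue and genotype as terms, which pairs arrays of 1 genotype or 1 tissue but no replicates. The number of arrays limits all of these values.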
